A study of Mus musculus with 8 samples.

Results

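The Cyp3a genes encode cytochrome P450 monooxygenases of subfamily 3A, and their RNA was followed here in mouse liver with and without a working Atp7b gene. The members were the rows of the count table with the gene names Cyp3a11, Cyp3a13, Cyp3a16, Cyp3a25, Cyp3a41a, Cyp3a41b, Cyp3a44 and Cyp3a59, which are 8 of the 54232 rows of the table. All 8 were found, and 5 of them (Cyp3a11, Cyp3a13, Cyp3a25, Cyp3a41a and Cyp3a59) had enough counts to be tested. The other 3 are described by their counts. The study holds 4 libraries of WT liver and 4 of Atp7b KO liver, all from mice 6 months of age. Atp7b encodes a copper-transporting ATPase, and its loss causes copper to build up in the liver, as in Wilson disease. The sources used here do not give strain, sex, diet or the design of the Atp7b allele. They also do not say whether each library is a separate animal, so the p-values measure the spread between libraries, which may be technical.

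CYP3A enzymes sit in the endoplasmic reticulum of hepatocytes and enterocytes and oxidise drugs, steroids and bile acids, taking electrons from the P450 reductase encoded by Por. Many Cyp3a genes are switched on by the pregnane X receptor (PXR, gene Nr1i2) and the constitutive androstane receptor (CAR, gene Nr1i3), each as a partner of the retinoid X receptor, with the hepatocyte factor HNF4A needed for their liver expression. In mice the members also follow age and sex: Cyp3a11 is the main inducible form of adult liver, Cyp3a16 is known from fetal and neonatal liver, and Cyp3a41a, Cyp3a41b and Cyp3a44 are known from female liver, where growth hormone sets their level.

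The members lie on mouse chromosome 5 (mm10, GENCODE M21). Cyp3a13 (137892932 to 137921619, minus strand) stands alone, 7.51 Mb from the other 7. These fill 0.677 Mb in the order Cyp3a16, Cyp3a41b, Cyp3a41a, Cyp3a44, Cyp3a11, Cyp3a25 and Cyp3a59, with Cyp3a59 as the only one of the 8 on the plus strand. Cyp3a11 (ENSMUSG00000056035.8) spans 145854426 to 145879964, Cyp3a25 (ENSMUSG00000029630.15) 145977194 to 146009618 and Cyp3a41a (ENSMUSG00000075551.4) 145694049 to 145720136. No exon of a member overlaps an exon of another annotated gene.

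By sequence the members fell into 3 groups. Over aligned columns of the coding transcripts, Cyp3a25 and Cyp3a59 were 97.0% identical. Cyp3a41a and Cyp3a41b were 99.7% identical, with 6 differing columns of 2064, and Cyp3a16, Cyp3a44 and Cyp3a11 were each at 91.3% to 94.9% to the others of their group. Cyp3a13 reached 68.1% to 71.7% with any member. The window from 250 bases before to 50 after the transcription start split the groups further. The windows of Cyp3a16, Cyp3a41a, Cyp3a41b and Cyp3a44 were 93.0% to 98.3% identical, those of Cyp3a25 and Cyp3a59 96.3%, and that of Cyp3a11 was at 73.0% to 76.3% to the 4 nearest.

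**Figure D1:**
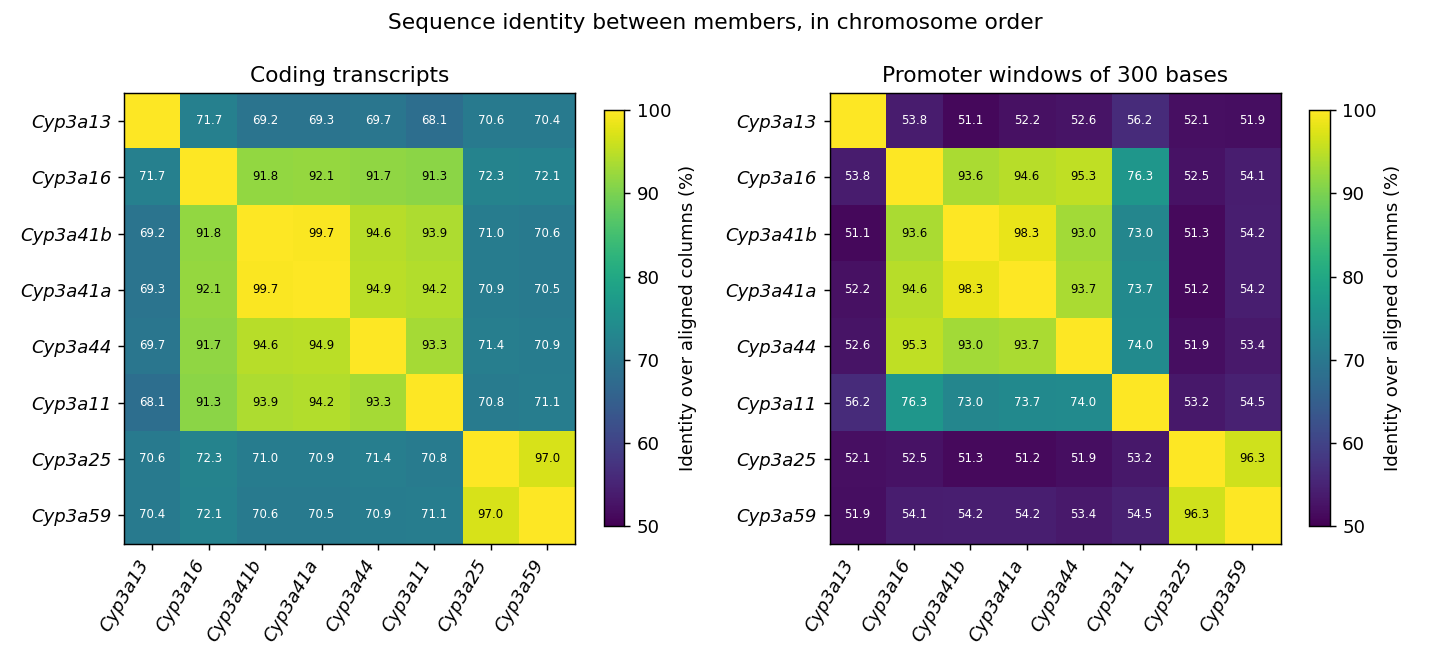
Percent identity over aligned columns between the 8 members, for coding transcripts (left) and for promoter windows of 300 bases (right), with genes in chromosome order on both axes and colour from 50% to 100%. Cyp3a25 and Cyp3a59 form a block at 97.0% and 96.3%, and Cyp3a11 is close to Cyp3a16, Cyp3a41a, Cyp3a41b and Cyp3a44 by transcript but at 73.0% to 76.3% by promoter window.

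The windows of 5 members are printed to show how far Cyp3a11, the Cyp3a41a and Cyp3a44 type and the Cyp3a25 and Cyp3a59 type differ before the start. They are from RefSeq on GRCm38.p6, 5′ to 3′ on the gene's strand, and capitals mark AGGTCA on either strand, the core sequence bound by PXR, CAR and their relatives, and CAAAGTCCA, a sequence bound by HNF4A. The windows are chr5:145879805-145880104 (minus strand) for Cyp3a11, chr5:145720087-145720386 (minus) for Cyp3a41a, chr5:145805825-145806124 (minus) for Cyp3a44, chr5:146009569-146009868 (minus) for Cyp3a25 and chr5:146079008-146079307 (plus) for Cyp3a59.
Cyp3a11: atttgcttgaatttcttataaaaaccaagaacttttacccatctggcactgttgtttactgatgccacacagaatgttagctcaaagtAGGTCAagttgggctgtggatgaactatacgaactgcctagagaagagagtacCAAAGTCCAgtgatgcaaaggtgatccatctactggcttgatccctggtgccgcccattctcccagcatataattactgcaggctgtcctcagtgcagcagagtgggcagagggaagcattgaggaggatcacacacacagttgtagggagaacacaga
Cyp3a41a: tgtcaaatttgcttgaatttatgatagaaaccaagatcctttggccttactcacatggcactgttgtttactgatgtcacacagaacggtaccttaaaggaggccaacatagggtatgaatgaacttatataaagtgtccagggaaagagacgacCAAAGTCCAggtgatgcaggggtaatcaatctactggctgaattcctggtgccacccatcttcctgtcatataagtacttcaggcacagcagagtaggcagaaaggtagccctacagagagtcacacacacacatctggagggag
Cyp3a44: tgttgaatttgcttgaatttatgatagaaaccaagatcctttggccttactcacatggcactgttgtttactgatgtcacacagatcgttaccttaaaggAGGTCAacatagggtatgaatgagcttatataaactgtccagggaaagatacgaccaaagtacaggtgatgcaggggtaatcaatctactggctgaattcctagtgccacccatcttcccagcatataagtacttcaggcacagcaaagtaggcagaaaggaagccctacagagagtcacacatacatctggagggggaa
Cyp3a25: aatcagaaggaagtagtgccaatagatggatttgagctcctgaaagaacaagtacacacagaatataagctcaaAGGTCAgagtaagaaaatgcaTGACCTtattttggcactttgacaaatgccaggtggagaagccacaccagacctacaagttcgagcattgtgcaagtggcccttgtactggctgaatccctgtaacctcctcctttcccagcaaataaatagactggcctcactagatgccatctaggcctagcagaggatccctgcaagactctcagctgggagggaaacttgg
Cyp3a59: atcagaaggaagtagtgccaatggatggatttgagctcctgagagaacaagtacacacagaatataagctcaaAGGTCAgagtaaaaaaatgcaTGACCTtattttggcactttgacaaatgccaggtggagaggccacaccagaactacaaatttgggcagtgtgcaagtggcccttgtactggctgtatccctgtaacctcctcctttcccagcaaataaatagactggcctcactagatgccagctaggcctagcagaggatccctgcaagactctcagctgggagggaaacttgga

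On either strand, CAAAGTCCA stood in the windows of 4 members, Cyp3a11, Cyp3a16, Cyp3a41a and Cyp3a41b, and in 0.475% of all 32851 promoter windows of the same length. AGGTCA stood in those of Cyp3a11, Cyp3a25, Cyp3a44 and Cyp3a59, against 16.3% of all windows, and in Cyp3a25 and Cyp3a59 it came on both strands, 176 and 155 bases and 177 and 156 bases before the start. AGTTCA stood in the windows of Cyp3a11, Cyp3a41a and Cyp3a41b, against 14% of all. TATAAA was found in 5 member windows and 13.6% of all. TTCNNNGAA, the form of a STAT5 site, was in 0 of 8 windows and 8.30% of all. No overlap between motifs was removed, and a match of letters shows no binding.

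Library totals were 9880253 to 27530506 counts in WT and 14583961 to 18423836 in KO. Atp7b itself was at 28.9, 32.0, 9.63 and 27.4 CPM (counts per 1e6 of a library total scaled with TMM factors) in the 4 WT libraries, and at 6.5 to 8.91 CPM in the KO libraries. It fell by 1.65 on the log2 scale (quasi-likelihood F test of edgeR, adjusted p = 0.00313), with WT replicate 3 close to the KO range. This library also stood apart from the other WT libraries in other ways. Its TMM factor was 0.716 against 0.848 to 0.952, and the summed level of 17 male-biased liver genes was 68634 CPM against 11226 to 20792 CPM, so the member results are given with and without it. Hepatocyte markers summed to 90659 to 147411 CPM in WT and 57678 to 81231 CPM in KO. In bulk tissue, fewer hepatocytes and less RNA per hepatocyte cannot be told apart.

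The family total overlapped between genotypes, while single members differed. Cyp3a25 and Cyp3a59 fell 4.88-fold and 4.0-fold, Cyp3a41a went from 1 WT count in all to 194 or more counts in every KO library, and Cyp3a11 and Cyp3a13 did not pass the test. Of the 5 tested members, Cyp3a25 and Cyp3a59 were called lower at an adjusted p under 0.05. Among all 15811 genes tested, 30.0% were called, 17.6% higher and 12.5% lower, so a call in itself was common in this comparison. The balance of directions moved with the scaling, from 2775 higher and 1971 lower to 4804 and 642 with library totals only, and to 4485 and 743 with totals without the 10 most abundant genes. Cyp3a41a passed the filter on low counts only through its KO libraries, so its presence among the tested genes already needed a difference. Its call as higher is therefore not counted as a result.

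Summed over the 8 members, the level per kb of coding transcript was 843, 1301, 3568 and 1620 CPM per kb in WT replicates 1 to 4. In KO replicates 1 to 4 the sum was 1384, 1070, 1907 and 1872 CPM per kb. The groups overlapped, and WT replicate 3 was the highest and WT replicate 1 the lowest of the 8 libraries. The summed count took 0.179% to 0.579% of all counts in WT and 0.305% to 0.540% in KO. The summed count does not depend on how counted reads were divided among the 8 members. The sum per kb does, because the members differ in length. Both sums depend on whether reads with several matches were counted, which the sources used here do not give. Reads shared with Cyp3a63-ps and Cyp3a57, which are outside the sums, can also change them. In log2 terms the KO mean of summed CPM lay 0.18 below the WT mean, and 0.37 above it without WT replicate 3, so the direction of the total rests on that library. It rests on the scaling too: with all 8 libraries the KO mean lay 0.33 above with library totals only and 0.26 above with totals without the 10 most abundant genes. With Cyp3a11 left out, the other 7 members summed to 1325 ± 528 CPM (SD, n = 4) in WT and 420 ± 57.3 CPM (SD, n = 4) in KO.

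The shares of the family per kb separated the genotypes without overlap for the main 2 members, and also for Cyp3a59. Of all genes tested, 32.1% did not overlap between the genotypes in CPM, so such a separation was common. Cyp3a11 made up 53.1% to 72.2% of the family level per kb in WT and 85.9% to 89.9% in KO. Cyp3a25 made up 24.0% to 38.7% in WT and 6.18% to 8.42% in KO. Shares are parts of the same whole, so a lower Cyp3a25 share in itself raises that of Cyp3a11. The higher Cyp3a11 share is therefore not read as a separate result, and the genotypes overlapped in Cyp3a11 CPM. Cyp3a59 went from 1.82% ± 0.363 to 0.491% ± 0.0413 (SD, n = 4 each), and Cyp3a13 was at 2.44% to 6.08% and 2.95% to 4.71%. The other 4 members together stayed a small part in both genotypes, with Cyp3a41a at 0.463% ± 0.115 of the KO level (SD, n = 4).

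**Figure D2:**
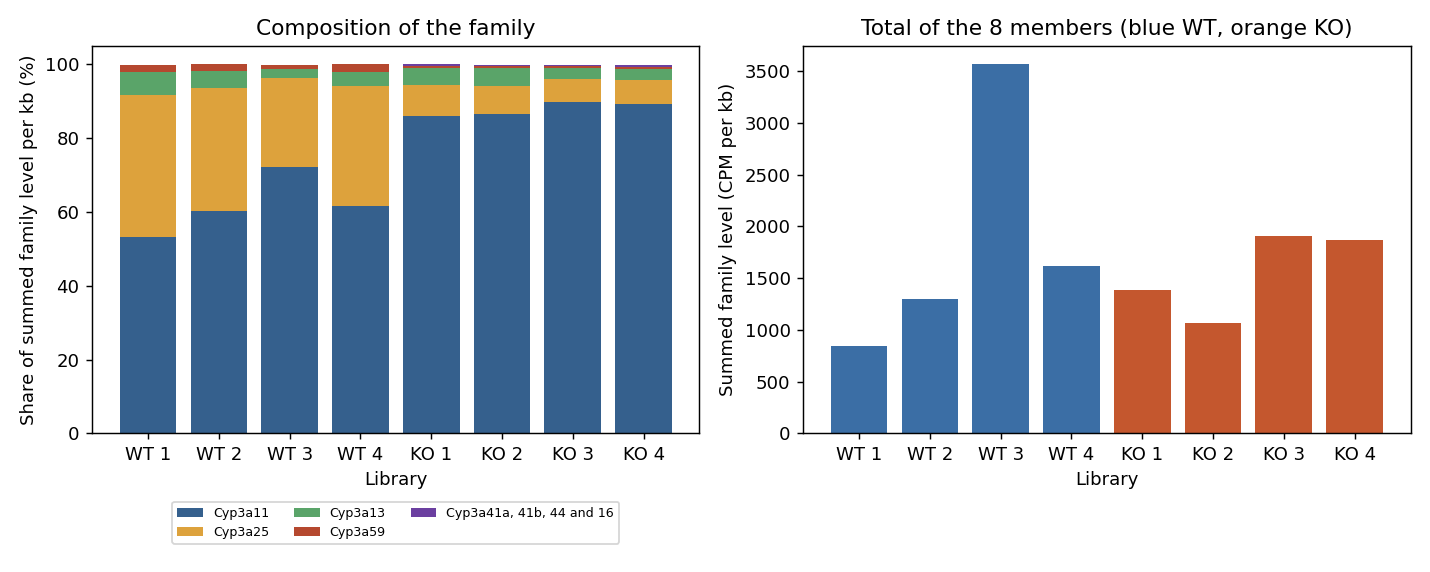
Left, the share of each member in the summed family level per kb in every library, in percent, with Cyp3a41a, Cyp3a41b, Cyp3a44 and Cyp3a16 drawn together. Right, the summed level in CPM per kb. Cyp3a25 takes 24.0% to 38.7% of the WT bars and 6.18% to 8.42% of the KO bars, while the totals of the genotypes overlap.

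Cyp3a11, the main PXR-inducible form of adult mouse liver, was the most abundant member in both genotypes, by CPM in every library and by mean CPM per kb. Its length was taken as the 2344 bases of its coding transcript, while all its annotated exons cover 5093 bases. With that longer length, its level and share per kb would be lower. The Cyp3a11 level was compared between libraries in CPM. It was at 1050, 1840, 6040 and 2340 CPM in WT replicates 1 to 4 and at 2790, 2170, 4020 and 3920 CPM in KO replicates 1 to 4. The KO libraries lay inside the WT range, whose highest library was 5.76 times its lowest, against 1.85 times in KO. The log2 difference, KO minus WT, was 0.20 ± 0.47 (SE), with a 95% interval of -0.84 to 1.23 (edgeR quasi-likelihood, adjusted p = 0.790). This interval spans both a fall and a rise of more than 1.5-fold. Without WT replicate 3, the highest WT library, the difference was 0.88 and was called (adjusted p = 0.0248), and with limma-voom quality weights, which weigh libraries by their fit, it was 0.83 (adjusted p = 0.0203). Without WT replicate 1, the lowest, it was -0.09 (adjusted p = 0.903), so whether Cyp3a11 counts as higher in KO depends on single WT libraries.

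Cyp3a25, a liver and intestine form, fell in KO. Its level was 653, 864, 1720 and 1060 CPM in WT replicates 1 to 4 and 233, 165, 236 and 246 CPM in KO replicates 1 to 4. Every KO library lay below every WT library, as was so for 32.1% of all genes tested in one or the other direction. The means were 1070 ± 460 and 220 ± 37.2 CPM (SD, n = 4 each), a log2 difference of -2.29 ± 0.30 (SE), or 4.88-fold lower (edgeR quasi-likelihood, adjusted p = 2.78e-04). Without WT replicate 3, again the highest WT library, the difference was -1.98 (adjusted p = 8.89e-06).

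Cyp3a59, the neighbour of Cyp3a25 on the other strand, also fell, from a lower level. It was at 35.1, 49.5, 91.6 and 64.4 CPM in WT replicates 1 to 4 and at 14.4, 11.3, 16.9 and 17.5 CPM in KO replicates 1 to 4. The groups did not overlap. The order of the 4 WT libraries was the same as for Cyp3a25, and also as for Cyp3a11 and Cyp3a13, so it is not particular to this pair. The log2 difference was -2.0 ± 0.29 (SE), or 4.0-fold lower (adjusted p = 4.66e-04), and -1.74 without WT replicate 3. Of the stretches of 100 bases in the Cyp3a59 transcript, 5.6% also stand in Cyp3a25, and 28% of those of 50 bases stand in another Cyp3a transcript, mainly Cyp3a25. How many reads of the more abundant Cyp3a25 were counted under Cyp3a59 was not tested.

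Cyp3a13, expressed in liver and intestine and outside the main cluster, was not called. It was at 152, 177, 257 and 182 CPM in WT replicates 1 to 4 and at 190, 149, 170 and 163 CPM in KO replicates 1 to 4. The groups overlapped, and WT replicate 3 was the highest library. The log2 difference was -0.19 ± 0.20 (SE), with a 95% interval of -0.62 to 0.24 (edgeR quasi-likelihood, adjusted p = 0.507), and -0.03 without WT replicate 3. Its sign turned to 0.26 with library totals only and to 0.20 when the 10 most abundant genes were left out of the totals, scalings that moved the median of all genes from -0.05 to 0.37 and 0.32. Intestinal epithelium markers were also read: of 12 listed, 7 were tested, with 4 higher and 1 lower in KO (0 lower without KO replicate 2). Among all genes tested, 17.6% were higher and 12.5% lower. Cdx1, Cdx2, Sis, Alpi, Mep1a and Muc13 had 0 WT counts, so any of them tested passed the filter only through KO. Their KO counts are not given here, and no difference is read from these zeros. The list summed to 514 to 844 CPM in WT and 526 to 880 CPM in KO, and its part in the Cyp3a13 level was not tested.

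Cyp3a41a, known as a female-predominant form, was nearly absent from WT and read in all KO libraries. WT replicates 1 to 4 had 1, 0, 0 and 0 counts, and KO replicates 1 to 4 had 195, 194, 295 and 508 counts, or 12.4, 8.91, 15 and 24.4 CPM. The groups lay far apart, and KO replicate 4 was the highest library. The ratio of summed counts, scaled to library size, was 886 with a 95% counting interval of 159 to 35000, which covers counting error only. The fitted log2 difference was 9.26 ± 0.65 (SE) and 9.15 without WT replicate 3, a value that depends on the prior count because WT had 1 count. Cyp3a41a passed the filter on low counts only through its KO libraries, so no p is given. Per kb, Cyp3a41a in KO reached 7.36 ± 3.21 CPM per kb (SD, n = 4), a range that overlapped that of Cyp3a59 there, at 7.54 ± 1.42, while Cyp3a11 in KO was at 1380 ± 383.

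Cyp3a41b, the near-copy of Cyp3a41a, followed at the floor of detection. It had 0 counts in each WT library and 7, 7, 10 and 10 counts in KO replicates 1 to 4. Taking 3 counts as the floor for the 4 WT libraries together, it was at least 8.43-fold higher. Of its 100-base stretches, 88.2% also stand in Cyp3a41a, and 90.8% of those of Cyp3a41a stand in another member, so reads of the 2 copies could rarely be told apart and the value of either alone is uncertain. Summed, the 2 copies had 202, 201, 305 and 518 counts in KO replicates 1 to 4, and a fit with both as 1 row gave a log2 difference of 9.30.

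Cyp3a44, also known from female liver, had 0, 3, 0 and 1 counts in WT replicates 1 to 4 and 24, 6, 23 and 33 in KO replicates 1 to 4. The ratio of summed counts was 16, with a counting interval of 6.02 to 60. The highest WT level, 0.184 CPM with an interval of 0.0380 to 0.539, and the lowest KO level, 0.276 CPM with an interval of 0.101 to 0.600, were within counting error of each other. Cyp3a16, the fetal and neonatal form, had 0 WT counts and 5, 5, 5 and 11 KO counts, at least 6.44-fold higher against the same floor. A library with 0 counts allows up to 0.129 to 0.425 CPM in WT, taken as 3 counts of its scaled total. Cyp3a44, Cyp3a41b and Cyp3a16 failed the filter on low counts, so no p is given for them.

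**Figure D3:**
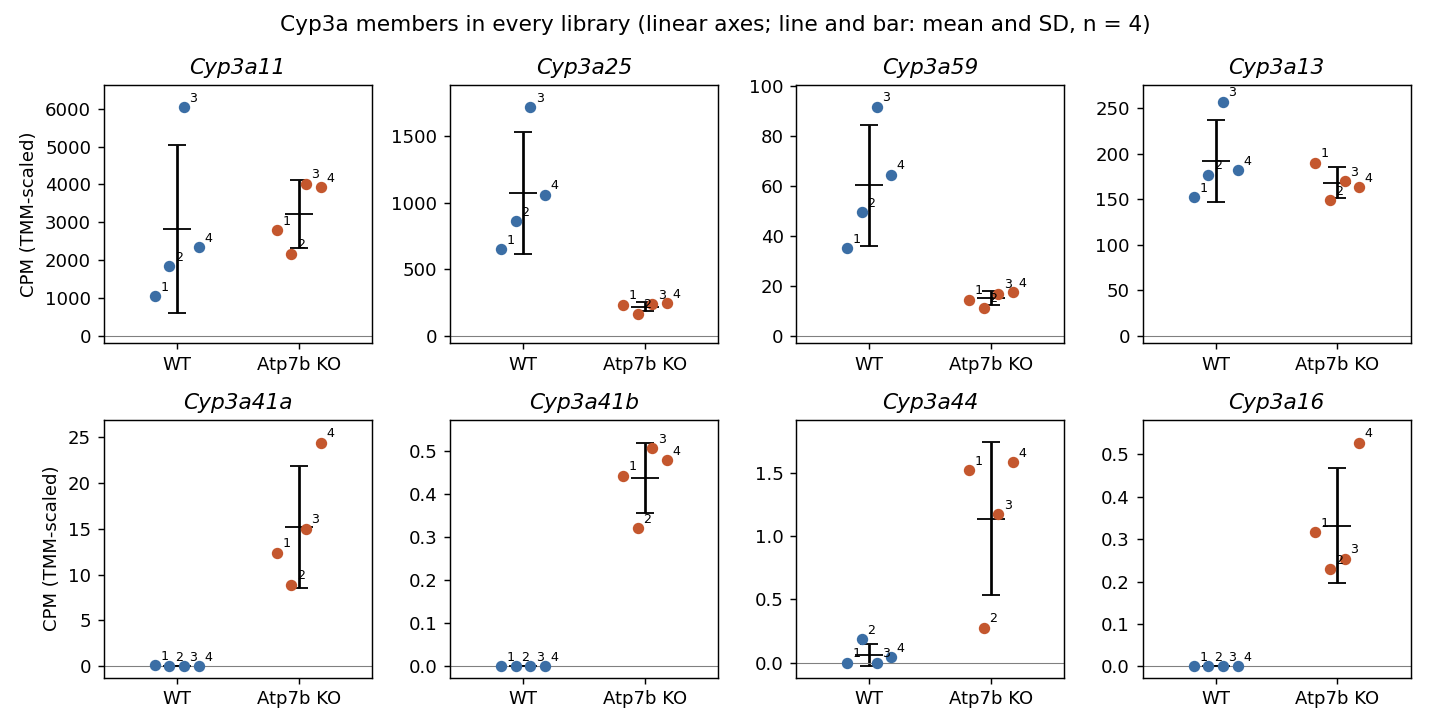
CPM of each member in every library on linear axes that differ between panels, with replicate numbers beside the points and the mean and SD of 4 libraries in black (blue WT, orange Atp7b KO). Cyp3a25 and Cyp3a59 lie lower in all KO libraries, Cyp3a41a, Cyp3a41b, Cyp3a44 and Cyp3a16 lie at or near 0 in WT, and WT replicate 3 is the highest library for Cyp3a11, Cyp3a25, Cyp3a59 and Cyp3a13.

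The order of levels per kb in WT was Cyp3a11, Cyp3a25, Cyp3a13 and Cyp3a59, at 1200, 536, 65.0 and 30.2 CPM per kb, with the other 4 members under 0.1. The WT ranges of Cyp3a11 and Cyp3a25 overlapped, while Cyp3a25, Cyp3a13 and Cyp3a59 were each clear of the next. In KO the order was Cyp3a11, Cyp3a25, Cyp3a13, Cyp3a59, Cyp3a41a, Cyp3a44, Cyp3a41b and Cyp3a16. There Cyp3a11 lay above Cyp3a25 in every library, at 927 to 1710 against 82.3 to 123 CPM per kb, and the neighbours Cyp3a59 and Cyp3a41a, Cyp3a44 and Cyp3a41b, and Cyp3a41b and Cyp3a16 overlapped.

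Ratios within a library, which need no scaling between libraries, were computed for the 4 members with at least 10 counts in every library of a genotype. For every 100 counts of Cyp3a11, Cyp3a25 had 62.2, 47.0, 28.4 and 45.3 counts in WT replicates 1 to 4 and 8.37, 7.57, 5.87 and 6.26 in KO replicates 1 to 4. The log2 ratio was lower in all 4 KO libraries, by 2.66 in the mean (exact permutation test, two-sided, p = 0.0286, not adjusted). That p is the smallest that 4 against 4 libraries can give. Cyp3a59 had 1.52 to 3.35 counts per 100 of Cyp3a11 in WT and 0.420 to 0.518 in KO, and its log2 ratio fell by 2.39 with the same exact p.

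Cyp3a41a had 0.373 to 0.622 counts per 100 of Cyp3a11 in KO. It met the minimum of 10 counts only through its KO libraries, so its ratio had to differ, and its value is a description with no test. For that reason no p adjusted over all ratios is given. For Cyp3a13 the ratio did not pass, with 4.25 to 14.5 counts per 100 of Cyp3a11 in WT and 4.17 to 6.86 in KO (log2 difference -0.62, exact permutation p = 0.143). By the unadjusted test Cyp3a25 and Cyp3a59 thus changed unequally to Cyp3a11, and for Cyp3a13 no such difference was detectable with these libraries.

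The libraries were placed in 3 number series (A with 1 WT and 2 KO libraries, B with 1 and 1, and C with 2 and 1), which the labels do not call batches. The names of the count columns do not show these series. Within A, B and C the log2 difference of Cyp3a25 was -1.74, -2.86 and -1.96, that of Cyp3a59 -1.45, -2.43 and -1.69, and that of Cyp3a41a 5.69, 7.01 and 7.70. The Cyp3a41a values are set by the prior count of 2 in these log2 levels, since WT had 1 count in A and 0 in B and C. Cyp3a11 did not keep 1 direction, at 1.23, -0.59 and 0.92, nor did Cyp3a13, at 0.15, -0.59 and -0.14. Series B compares WT replicate 3 with KO replicate 3 alone.

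**Figure D4:**
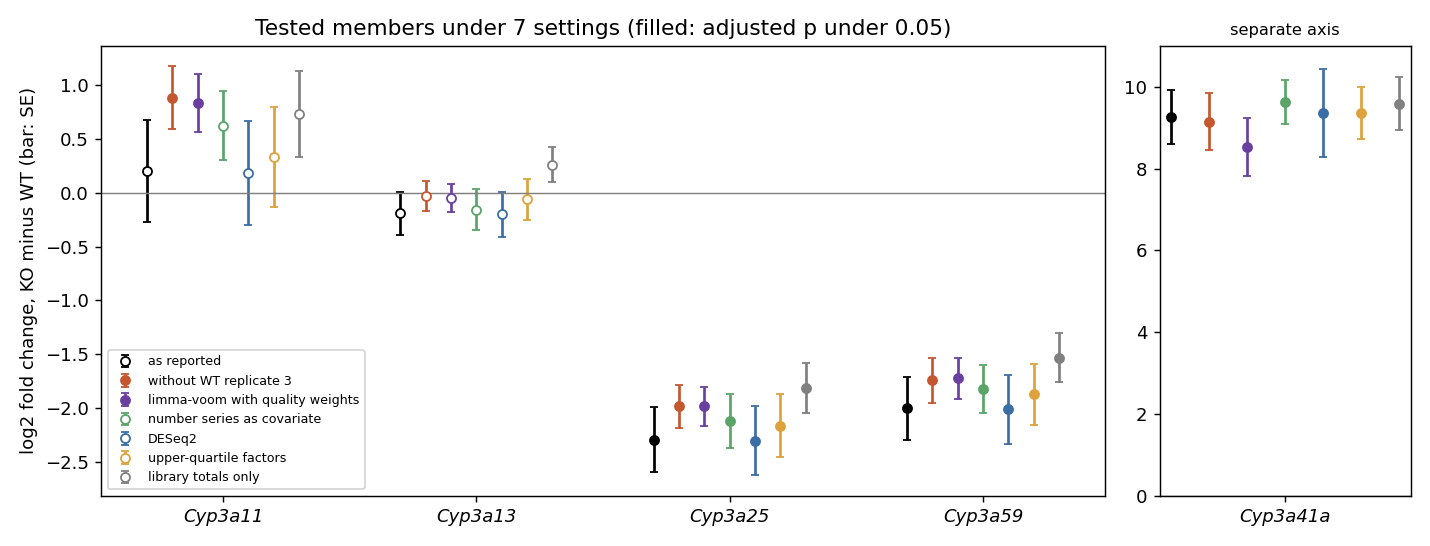
Log2 fold change, KO minus WT, of the 5 tested members as reported and under 6 other settings, with bars of 1 SE, filled points for an adjusted p under 0.05 and a separate axis for Cyp3a41a. Cyp3a25, Cyp3a59 and Cyp3a41a are filled in all 7 settings, Cyp3a11 is filled without WT replicate 3 and with quality weights, and Cyp3a13 in none. Cyp3a41a was tested only through its KO counts, so its filled points are not read as a test.

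Among 8415 genes averaging 10 CPM or more, those whose pattern over the 8 libraries was most like that of Cyp3a25 were Acss3 and Ppfia2, with a root mean square difference of 0.22 in log2 after centring, and RP23-137L8.1 at 0.24. The median over all these genes was 1.15. Cyp3a59 was nearer still, at 0.16. For Cyp3a11 the nearest were RP23-234K24.8 and RP23-402P24.5, both at 0.24, and Pigp at 0.28, against a median of 0.82. For Cyp3a13 they were Mrpl3 at 0.05 and Serbp1 and Mios at 0.07, against a median of 0.40. Of the nearest genes of other families, Zscan25, on the Cyp3a16 side of the cluster, was not called (log2 difference 0.02 ± 0.20, SE, adjusted p = 0.946 by edgeR). Beside Cyp3a13, Pilrb2 was not called (0.75, adjusted p = 0.251) but was without WT replicate 3 (1.25, adjusted p = 0.0120), with library totals only (adjusted p = 0.0442) and with quality weights (adjusted p = 0.00695). Gjc3, on the other side and read at 0.508 to 3.52 CPM, was lower (-1.25, adjusted p = 0.0278), a call lost without any 1 of WT replicate 1, KO replicate 2 and KO replicate 3 (adjusted p = 0.0775 to 0.0827). The Gjc3 call was also lost with library totals only (adjusted p = 0.118) and with totals without the 10 most abundant genes (adjusted p = 0.0991).

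Regulators of the Cyp3a genes were lower in KO or did not pass the test. Of 21 tested xenobiotic-sensing and hepatocyte transcription factors, 11 were lower and 0 higher, against 12.5% lower and 17.6% higher among all genes tested. Without WT replicate 3, 14 were lower. With library totals only, 5 were lower. The CAR gene Nr1i3 was at 231, 221, 162 and 197 CPM in WT replicates 1 to 4 and 66.3 to 83.1 CPM in KO (log2 difference -1.47 ± 0.17 (SE), adjusted p = 1.41e-04 by edgeR). The PXR gene Nr1i2 was not called (-0.44 ± 0.19, adjusted p = 0.103), with 58.7 to 103 CPM in WT and 56.0 to 66.2 CPM in KO, but was called without WT replicate 1 (adjusted p = 0.0308) and with quality weights (adjusted p = 0.0496).

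The shared partner Rxra (-1.19, adjusted p = 0.00333), Cebpa (-1.37, adjusted p = 0.00228) and Foxa2 (-1.09, adjusted p = 0.00180) were lower. Hnf4a (-0.63, adjusted p = 0.0244) and the bile acid receptor Nr1h4 (-0.55, adjusted p = 0.0362) were called with all 8 libraries, but scaling by library totals alone ended each call (adjusted p = 0.455 and 0.600). Both calls were also lost without single libraries (Hnf4a without any 1 of 5, adjusted p = 0.0704 to 0.0748, and Nr1h4 without any 1 of 5, adjusted p = 0.0528 to 0.109). The glucocorticoid receptor Nr3c1 (-0.72, adjusted p = 0.0934) and Nr0b2 (-0.99, adjusted p = 0.228) were not called. Without WT replicate 1 Nr3c1 was called (adjusted p = 0.0468), and Nr0b2 was called without KO replicate 3 (-1.95, adjusted p = 0.00890). Por, the electron donor of CYP3A enzymes, was not called (-0.55, adjusted p = 0.193).

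**Figure D5:**
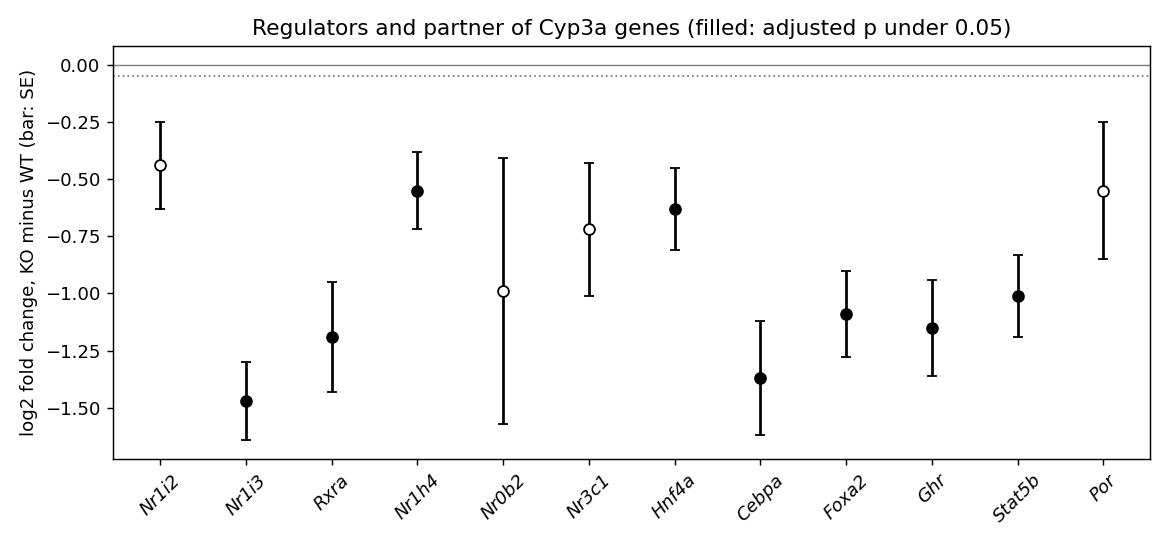
Log2 fold change, KO minus WT, with bars of 1 SE, for regulators of Cyp3a genes, the growth hormone receptor gene Ghr, Stat5b and Por, with filled points for an adjusted p under 0.05 and a dotted line at the median of all genes, -0.05. Nr1i3 (-1.47) and Cebpa (-1.37) are lowest, and Nr1i2, Nr0b2, Nr3c1 and Por are open.

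Other genes that share regulation with the Cyp3a members moved in both directions. Of 24 tested PXR and CAR targets outside the family, 9 were higher and 6 lower, with a median log2 difference of 0.36 against -0.05 for all genes tested. Of all genes tested, 17.6% were higher and 12.5% lower. Gsta1 (5.05) and Sult2a1 (7.24) were higher, and Cyp2c29 (-4.34) and Cyp2c37 (-4.25) were lower. Sult2a1, with at most 2 counts in a WT library, passed the filter on low counts only through KO and could only be called higher. Of 15 electron-transfer and haem-supply genes, 3 were lower (Pgrmc2 at -1.14, Cyb5b at -0.75 and Cpox at -1.0) and 6 without WT replicate 3, with a median of -0.53. Cpox lost its call without any 1 of 5 libraries (adjusted p = 0.0561 to 0.0610), and scaling by library totals alone ended the calls of Cpox and Cyb5b. With it, 1 of the 15 genes was lower and 1 higher.

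Other genes known for female or early-life liver, as Cyp3a41a, Cyp3a41b, Cyp3a44 and Cyp3a16 are, were also read. Their counts stand beside 17.6% higher and 12.5% lower among all genes tested. Of 16 tested female-biased genes outside the family, 9 were higher and 0 lower in KO (median log2 difference 1.31), led by Cyp2a4, which went from 0.123 to 0.566 CPM in WT to 319 to 534 CPM in KO, with Prom1 (4.37) and Atp6v0d2 (2.18) also higher. Of 17 male-biased genes, 6 were lower and 1 higher (median -0.52), with Susd4 (-2.70), Slco1a1 (-4.13), Elovl3 (-2.68) and Hsd3b5 (-2.36) lower. Without WT replicate 3, and with library totals only, 2 were higher. The summed level of the 17 was 13423 to 24805 CPM in KO. It was 68634 CPM in WT replicate 3 and 11226 to 20792 CPM in the other WT libraries, which overlapped the KO range. Of 13 fetal and neonatal genes, 8 were higher and 0 lower (median 1.92), among them Afp (4.06), Gpc3 (4.44), H19 (11.24) and Cd24a (4.53). The female-biased list held 20 genes and the fetal and neonatal list 17, and the rest were not tested. Cyp2a4 and H19, with at most 10 and 3 counts in a WT library, passed the filter on low counts only through KO. Such genes could only be called higher, which limits what the counts and medians of these lists show. In the growth hormone and STAT5 axis 4 of 10 genes were lower and 0 higher (median -0.76), namely Ghr (-1.15), Stat5b (-1.01), Igfals (-0.80) and Cish (-1.98). With library totals only, 1 of these 4 calls was left. Cish was not called without any 1 of WT replicate 1, KO replicate 1, KO replicate 2 and KO replicate 3 (adjusted p = 0.0793 to 0.0883).

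Sex-linked RNA was checked because several members depend on sex. Xist had 9 counts over the 4 WT and 29 over the 4 KO libraries, at most 0.459 CPM, and the Y-linked gene Eif2s3y was at 73.6 to 208 CPM in WT and 75.7 to 106 CPM in KO. Every KO library with Cyp3a41a counts thus also held Y-linked RNA and little Xist.

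Markers of liver zones, inflammation and other cell types were read beside the members, and their part in the Cyp3a values was not tested. The shares to set them against are those of all genes tested, 17.6% higher and 12.5% lower. Of 17 pericentral genes, 3 were higher and 6 lower (median -0.55), with Glul (-2.29), Slc1a2 (-1.87), Oat (-1.68) and Cyp2e1 (-1.71) lower, and without WT replicate 3 the lower ones were 10. Of 15 periportal genes, 8 were lower and 1 higher (median -0.72), with Sds (-1.95), Asl (-1.17) and Gls2 (-0.70) lower and Cdh1 (2.09) higher, with 5 lower without WT replicate 4 or KO replicate 3. With library totals only, 2 were lower and 3 higher. Of 22 acute-phase and inflammatory genes, 6 were higher and 2 lower (median -0.13), with Lcn2 (3.35), Orm2 (2.84), Orm3 (1.81) and Saa1 (1.18) higher, and without WT replicate 3 the counts were 10 and 6. With library totals only they were 10 and 0, and the lower ones were 0 or 1 without WT replicate 2 or 4 or any 1 KO library. Hepatocyte markers were lower in 7 of 16 and higher in 0 (median -0.70), in 11 without WT replicate 3, in 4 without WT replicate 4 or KO replicate 1, and in 1 with library totals only.

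Cholangiocyte markers were higher in 8 of 9 tested genes, with a summed level of 42.5 to 96.4 CPM in WT and 431 to 1036 CPM in KO. Stellate cell markers were higher in 4 of 10 (260 to 509 CPM in WT, 614 to 848 CPM in KO), lymphocyte markers in 5 of 9 (12.9 to 20.8 and 25.1 to 36.6 CPM) and neutrophil markers in 2 of 3 (2.66 to 6.23 and 7.30 to 17.5 CPM). The lymphocyte count was 2 with a filter of at least 1 CPM in 4 libraries. Macrophage markers were higher in 1 of 10 (153 to 491 and 340 to 827 CPM), in 5 without WT replicate 3 and in 3 without KO replicate 1. The macrophage count was 6 with library totals only, with totals without the 10 most abundant genes and with no filter, 4 with upper-quartile factors, 3 with DESeq2, 5 with quality weights and 7 with the number series as a covariate. Endothelial markers were lower in 1 of 9 (154 to 271 and 103 to 200 CPM), in 5 without WT replicate 3, in 3 without WT replicate 1, and in 0 without WT replicate 2 or 4 or KO replicate 1, 3 or 4. With all 8 libraries, the macrophage and endothelial counts did not exceed the shares over all genes tested, 17.6% higher and 12.5% lower. Of the neutrophil markers, Ly6g had 0 WT counts. Its KO counts are not given here, and no difference is read from it.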

How the data were processed

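Liver RNA was sequenced in 8 libraries. The authors deposited 1 table of raw counts, unscaled, with 1 row per gene. Per the submitters' processing notes, FastQC, cutadapt, STAR and build mm10 were used; the sources used here do not give the counting program, its handling of reads with several matches, the strand setting or the read length. If only uniquely placed reads were counted, near-identical copies are read too low.

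CPM values are counts per 1e6 of the TMM-scaled total. Genes passing edgeR's filterByExpr were fitted with TMM factors, genotype as the only term, edgeR 4.0.16 in R 4.3.3 (quasi-likelihood test), and Benjamini-Hochberg adjustment over 15811 genes. SEs are the fold change over the square root of F. Alternatives used limma 3.58.1, DESeq2 1.42.0, other scalings and filters, the number series as a covariate, and each library left out. Of 54232 gene IDs, 52480 matched GENCODE M21 with version; all 8 members did. The lengths used are those of the longest coding transcript. Stretches of 50 and 100 bases were matched exactly on the transcript strand. The fit was tested on simulated counts, and the permutation test on fixed values with a known answer.

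Members and lists were chosen with earlier results of these data known. Named genes are the members, Atp7b, 10 regulators and partners, up to 4 genes with the lowest p per list, the 3 most similar genes for 3 members, and flanking genes. The sex-linked genes and the other Cyp3a rows were added after values were seen. Not every regulator named by this rule is not reported here.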

Additional observations from a re-analysis of the deposited data

Results flagged for a closer look

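In 142 groups of 4 libraries, 16 had 1 library whose gap to the others passed Dixon's 95% critical value of 0.829 of the range, where chance flags about 5% of groups. Among the members, KO replicate 2 was low for Cyp3a25, at 165 CPM against 233 to 246 CPM in the other KO libraries. WT replicate 1 held the only Cyp3a41a count of the WT group, at 0.0880 CPM and 0.00507% of the family level per kb, against 0 in the others, so this gap is 1 count.

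WT replicate 3 stood apart for 5 named genes. It was high for Cebpa (428 CPM against 218 to 233), Cyp2c37 (844 against 256 to 324), Ghr (838 against 614 to 644) and Slco1a1 (2800 against 407 to 707), and low for Cpox (51.5 against 126 to 137). WT replicate 4 was high for Por (171 CPM against 85.9 to 100). KO replicate 3 was high for Nr0b2 (48.8 against 9.10 to 11.2) and low for Cyb5b (293 against 437 to 460), Elovl3 (35.1 against 95.7 to 103) and Asl (168 against 246 to 248). KO replicate 4 was high for Hnf4a (340 against 272 to 283) and Cish (13.2 against 4.11 to 5.01) and low for Cyp2a4 (319 against 504 to 534).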

How the results depend on the processing

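Cyp3a25, Cyp3a59 and Cyp3a41a kept their direction and their call under all alternatives run, each with a lowest and highest log2 value of -2.47 and -1.81, -2.20 and -1.53, and 8.53 and 11.07 (for Cyp3a41a, tested only through its KO counts, this is no sign of stability). Cyp3a11 was called higher with quality weights (0.83) and without WT replicate 3; over the 8 fits without 1 library it ranged from -0.09 to 0.88. Cyp3a13 turned to 0.26 with library totals only and to 0.20 with totals without the 10 most abundant genes. The family total turned from -0.18 to 0.33 and 0.26 under the same scalings and ranged from -0.42 to 0.37 without 1 library. The Cyp3a13 share of the family, -0.398 percentage points, was -0.998 to 0.219 without 1 library, positive without WT replicate 1, and Zscan25 was at -0.04 with quality weights and -0.05 to 0.09 without 1 library. The number of genes called, 4746, was 8226 with quality weights and 2872 at an adjusted p under 0.01, and 3644 to 8104 without 1 library. The 4 ratios to Cyp3a11 kept their direction in every alternative; without 1 library they were computed with no test. No paired analysis was possible because the labels give no replicate numbers shared by the genotypes. Depth limits Cyp3a16, Cyp3a41b and Cyp3a44, which had 26, 34 and 86 KO counts. Apart from the scalings and left-out libraries named, the cause of these changes was not tested.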

Other observations

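Cyp3a rows outside the 8 members were looked at after the members' values were seen. The pseudogene Cyp3a63-ps, which lies between Cyp3a41b and Cyp3a41a, had 0 counts in the WT libraries and 22, 34, 23 and 45 in KO replicates 1 to 4, at least 30.7-fold higher taking 3 counts as the floor for the 4 WT libraries together. It passed the filter on low counts only through its KO libraries, so no test is given. Its transcript shares 50-base stretches with Cyp3a11, Cyp3a16, Cyp3a41a, Cyp3a41b and Cyp3a44, and the share of its reads that came from them was not tested. Cyp3a57, at the Cyp3a16 end of the cluster and sharing 50-base stretches with Cyp3a25 and Cyp3a59, was lower in KO, at 0.367 to 1.01 CPM against 0.983 to 4.67 CPM in WT (log2 difference -1.61 ± 0.49 (SE), adjusted p = 0.0300). Cyp3a61-ps1, nearer to Cyp3a13 than to the cluster, had 0 WT and 5 KO counts.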
